A study of Mus musculus with 2 samples.

Results

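Mir204, Mir211 and Mir184, microRNA genes known from the eye, pigment cells and the choroid plexus, were examined in the midbrain of mouse embryos. They were 3 of the 1973 microRNA genes counted in the series. They were chosen by gene symbol with their read counts and their difference between the libraries already known, so both are given here as a description, without a test. The series has 1 group: midbrain of healthy B6NCrl embryos at embryonic day 10.5, male and female embryos pooled, with no treatment, second tissue or second stage. Replicate 2 was made from 51 embryos and replicate 1 from 69, each as 1 library of RNA shorter than 30 nt, so differences between embryos within a pool are not visible. The replicate 2 library held 9423767 reads, of which 3682410 were assigned to a microRNA gene, and the replicate 1 library held 7810040 reads, of which 3297835 were assigned.

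A microRNA is cut from a hairpin precursor, and its mature strand guides repression of messenger RNAs that pair with its seed, bases 2 to 8. miR-204 is abundant in the retinal pigment epithelium, the ciliary body and the choroid plexus, and in medaka fish it acts on Meis2 during lens and optic cup formation. miR-211 is best known from melanocytes, where its host gene Trpm1, which encodes an ion channel, is a target of the pigment cell transcription factor MITF. miR-184 is abundant in corneal and lens epithelium, and in mouse neural stem cells it has been described as a repressor of Numbl.

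The mature strands are shown because the first pair is nearly identical, which bears on how far their counts can be told apart. The sequences are those of RefSeq on GRCm38.p6, with the seed in capitals, written 5′ to 3′. All 3 genes were matched there by symbol, with both strands of each.
mmu-miR-204-5p: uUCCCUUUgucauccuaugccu
mmu-miR-211-5p: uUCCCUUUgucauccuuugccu
mmu-miR-184-3p: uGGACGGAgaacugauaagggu

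miR-204-5p and miR-211-5p have the same seed and the same length of 22 bases. They are identical over 95.5% of their length and share their first 16 bases. The difference is A17U, counted from the 5′ end, with the base of miR-204-5p first. In the pair below only this base is in capitals.
miR-204-5p at the difference: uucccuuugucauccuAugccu
miR-211-5p at the difference: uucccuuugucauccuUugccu

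A read that ends before base 17 could come from either gene, while one that passes it could be placed. Among 1004 other RefSeq hairpins, the longest stretch that miR-204-5p or miR-211-5p shares with another hairpin is these 16 bases. The only further RefSeq mature strand with this seed is miR-7670-3p, whose gene Mir7670 had 0 reads in both libraries. The miR-184-3p seed is found in no other RefSeq mature strand, and its longest stretch in another hairpin is 11 bases. Each of the 6 mature strands occurred in the GENCODE M21 transcripts of 1 gene only, its own, on the same strand, among 55341 gene symbols searched. No stretch of 20 bases of the 3 hairpins was found in another RefSeq hairpin.

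The hairpins are shown with both mature strands in capitals, because the counts are per gene and sum reads from both strands of the precursor.
Mir204 hairpin: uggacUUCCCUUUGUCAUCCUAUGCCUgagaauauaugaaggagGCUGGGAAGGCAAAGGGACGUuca
Mir211 hairpin: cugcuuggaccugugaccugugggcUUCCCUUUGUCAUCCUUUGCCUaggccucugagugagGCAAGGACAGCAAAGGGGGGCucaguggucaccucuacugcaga
Mir184 hairpin: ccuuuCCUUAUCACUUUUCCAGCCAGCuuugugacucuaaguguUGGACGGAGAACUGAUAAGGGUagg

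The strand that lies first in the hairpin is the 5p strand. In Mir204 and Mir211 it carries the seed that the genes share, while in Mir184 the strand shown above lies on the 3p side. The 3p strands of the first 2 genes have different seeds, CUGGGAA in miR-204-3p and CAAGGAC in miR-211-3p, so the shared seed does not extend to reads from that strand. How many reads came from which strand cannot be read from counts per gene.

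Mir204 (ENSMUSG00000065507.2, chr19:22750605-22750672, mm10, plus strand) lies within Trpm3, and in an intron of all 15 of its coding transcripts that span it (intron 6 of the 27-exon Trpm3-201). Mir211 (ENSMUSG00000065585.1, chr7:64205806-64205911, plus strand) lies within Trpm1, in an intron of all 8 spanning coding transcripts (intron 6 of the 27-exon Trpm1-201). Both run in the direction of their host, and the hosts are related members of the melastatin family of TRP channels. Mir184 (ENSMUSG00000065596.1, chr9:89802260-89802328, minus strand) overlaps no other annotated gene. Its nearest neighbour is the noncoding gene 1700017I07Rik, 542 bp away on the other strand, and the nearest coding gene is Ankrd34c at 63785 bp. The gene rows of the files are microRNA genes, and the messenger RNAs of Trpm3 and Trpm1 were not analysed here.

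Mir204 was the most abundant of the 3 genes and was at a similar level in both pools. It had 987 reads in replicate 2 and 775 in replicate 1, or 268 and 235 CPM (reads per 1000000 gene-assigned reads). The exact 95% binomial intervals were 252 to 285 CPM and 219 to 252 CPM, and they take in counting error alone: the reads carry no molecular identifiers, so several can stem from 1 molecule. The mean was 252 ± 23.4 CPM (SD, n = 2). It ranked 171st of the 1973 genes in replicate 2 and 178th in replicate 1. Of these genes, 700 had a read in replicate 2 and 690 in replicate 1. In bulk tissue a lower level can be fewer cells of a type or less RNA per cell, and these cannot be told apart.

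Mir211 was read often in replicate 2 and seldom in replicate 1. It had 504 reads in replicate 2 and 43 in replicate 1, or 137 CPM (125 to 149) and 13.0 CPM (9.44 to 17.6). The mean of 75.0 CPM had an SD of 87.6 CPM (n = 2), larger than the mean itself, so the mean describes neither library. Its rank was 199 in replicate 2 and 318 in replicate 1.

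Mir184 was the scarcest, and in replicate 1 it was close to undetected. It had 95 reads in replicate 2 and 3 reads in replicate 1, or 25.8 CPM (20.9 to 31.5) and 0.910 CPM (0.188 to 2.66). The mean was 13.4 ± 17.6 CPM (SD, n = 2), and the rank was 290 in replicate 2 and 510 in replicate 1. Its mean passed the limit of 10 CPM used for ratios only through replicate 2, so a gene that passed in this way had to differ between the libraries.

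**Figure D1:**
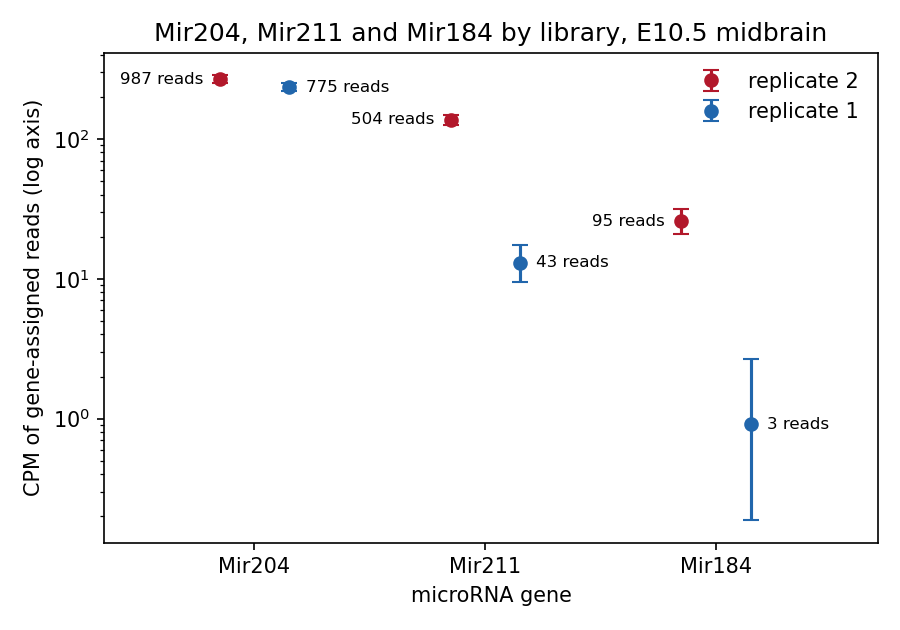
Level of each gene in replicate 2 (left, red) and replicate 1 (right, blue), in CPM on a log axis; bars are exact 95% binomial intervals, and the read number stands beside each point. The 2 points of Mir204 lie close together (268 and 235 CPM), while those of Mir211 (137 and 13.0 CPM) and Mir184 (25.8 and 0.910 CPM) lie far apart.

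The order Mir204, Mir211, Mir184 held within each library. Across libraries, Mir204 did not overlap Mir211, since its lower value of 235 CPM exceeded the higher value of Mir211, 137 CPM. Mir211 and Mir184 did overlap across libraries, with 25.8 CPM for Mir184 in replicate 2 above 13.0 CPM for Mir211 in replicate 1, although Mir211 was the higher of the pair within each library. Levels are not divided by length, since a microRNA read spans a mature strand of 21 or 22 bases whatever the length of its hairpin. The first count column of the files is the sum of 2 further columns whose meaning is not stated, and the reads of all 3 genes lay in the first of these, with 0 reads in the other in both libraries.

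The libraries differed in how the reads of Mir204 and Mir211 divided between the genes, counted over both strands of each hairpin. Within replicate 2 there were 1.96 reads of Mir204 for each read of Mir211 (95% counting interval 1.76 to 2.18), against 18.0 (13.3 to 25.1) within replicate 1. Mir211 thus made up 33.8% (exact interval 31.4 to 36.3%) of the 1491 reads of the pair in replicate 2 and 5.26% (3.83 to 7.02%) of the 818 reads in replicate 1. These ratios are taken within a library and do not depend on how the libraries are scaled. The pair together had 405 CPM in replicate 2 and 248 CPM in replicate 1, a mean of 326 ± 111 CPM (SD, n = 2).

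For Mir211 and Mir184, a difference in proportion between the libraries could not be told from counting error. There were 5.31 reads of Mir211 for each read of Mir184 in replicate 2 (counting interval 4.25 to 6.68) and 14.3 (4.59 to 72.2) in replicate 1. The intervals overlap, and the value of 5.31 lies inside the second, which rests on 3 reads. For Mir204 over Mir184 the ratios were 10.4 (8.41 to 13.0) in replicate 2 and 258 (88.1 to 1255) in replicate 1. These intervals do not overlap, but they take in counting error alone, and the last rests on the same 3 reads. The genes were chosen with this contrast known, so no difference between the pools is read from the intervals.

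**Figure D2:**
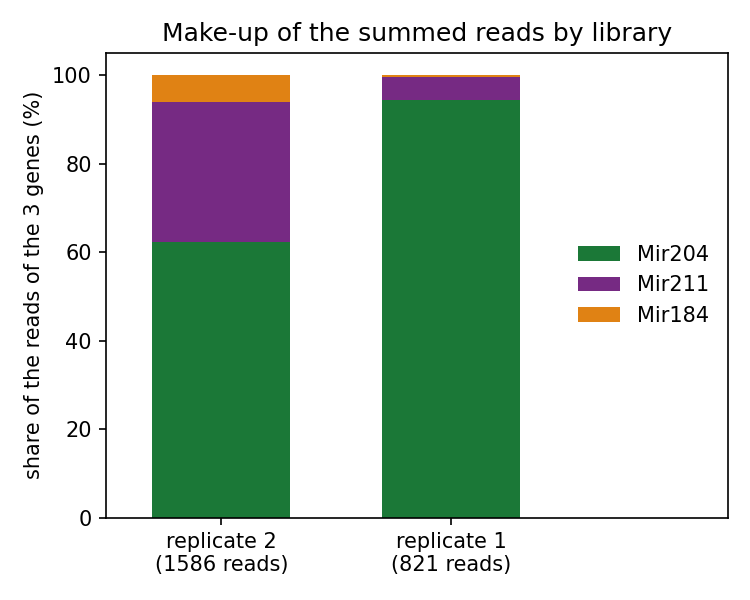
Share of each gene in the summed reads of the 3 genes, in percent, for replicate 2 (left, 1586 reads) and replicate 1 (right, 821 reads). Mir204 takes 62.2% in replicate 2 and 94.4% in replicate 1, and Mir211 takes 31.8% and 5.24% in the same order.

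Together the 3 genes held 0.0431% of gene-assigned reads in replicate 2 and 0.0249% in replicate 1, or 431 and 249 CPM. Of the difference of 182 CPM, Mir211 accounted for 68.1%, Mir204 for 18.2% and Mir184 for 13.7%. Without Mir204, Mir211 and Mir184 summed to 163 CPM in replicate 2 and 13.9 CPM in replicate 1.

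The ratio of replicate 2 over replicate 1 was computed with library sizes scaled by TMM and 0.5 added reads. Its counting interval was computed from the counts without added reads. For Mir204 the log2 ratio was 0.19, a 1.14-fold higher level in replicate 2 (exact conditional 95% counting interval 1.04 to 1.26). For Mir211 it was 3.38, or 10.4-fold higher (7.71 to 14.7). For Mir184 it was 4.62, or 24.5-fold higher (9.45 to 140), and the width of that interval comes from the 3 reads of replicate 1. With 3 added reads in place of 0.5 the log2 ratio of Mir184 was 3.88, so its size is known only roughly. There is 1 library per pool, so the ratios compare those libraries and have no replicate check.

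A ratio past 2-fold was found for 2 of the 3 genes, Mir211 and Mir184, both higher in replicate 2. Of the 338 genes whose mean reached 10 CPM, 7.40% were past 2-fold in either direction and 5.33% were past it in the direction of replicate 2. Past 4-fold were 0.592% of them, all higher in replicate 2, and these 2 genes were Mir184 and Mir211. Since the genes were chosen with this contrast known, nothing is read from these shares. The median log2 ratio of all 338 genes was −0.03, with quartiles of −0.28 and 0.23, and Mir204 lay inside the quartiles as the 97th highest.

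**Figure D3:**
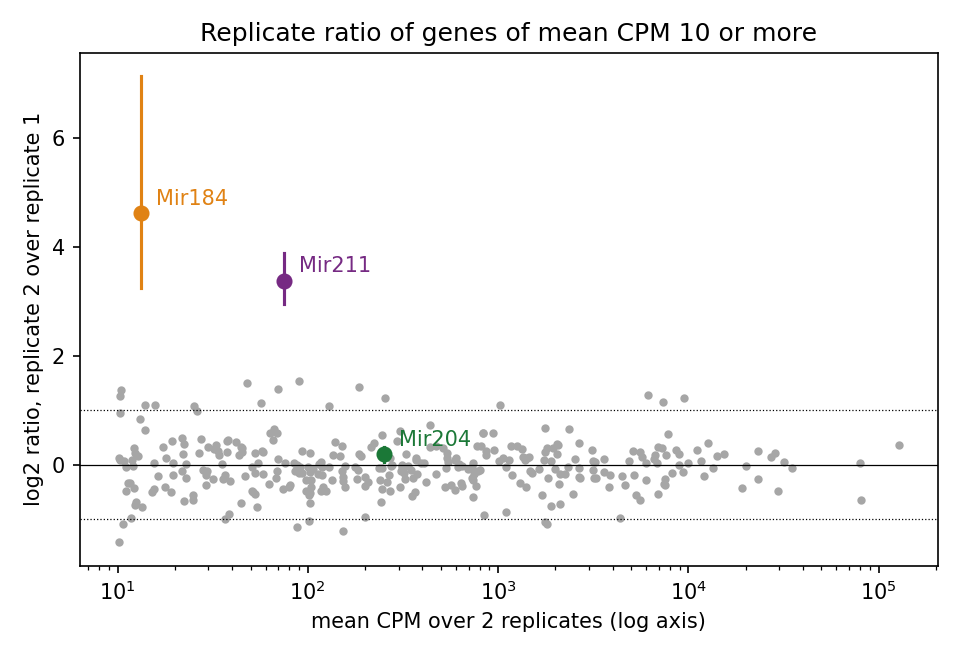
Log2 ratio of replicate 2 over replicate 1 against mean CPM (log axis) for the 338 genes of mean CPM 10 or more; coloured lines are 95% counting intervals of the 3 named genes and dotted lines mark 2-fold. Mir184 (4.62) and Mir211 (3.38) are the 2 highest points, and Mir204 (0.19) lies among the grey points.

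Ranked by closeness of the log2 ratio over the 2 libraries, each of Mir211 and Mir184 had the other as its nearest gene, 1.23 log2 units away. The next 2 for both were Mir10b, 2.90-fold higher in replicate 2, and Mir196b, 2.84-fold higher, which lie in Hox gene clusters. Mir10b had 492 reads in replicate 2 and 152 in replicate 1, and Mir196b had 260 and 82. With only 2 libraries, likeness is a single difference and carries no more than that. For Mir204 the nearest were Mir673 (0.19), Mir5099 (0.20) and Mir92-1 (0.19), the last transcribed from Mir17hg.

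By mean level, Mir204 stood between Mir449a (254 ± 144 CPM, SD, n = 2), known from multiciliated cells, and Mir505 (246 ± 8.65 CPM). Next beyond these were Mir135a-1 (260 ± 40.1 CPM), known from the developing midbrain, and the epithelial Mir200b (245 ± 64.1 CPM). The mean of Mir204 differed from all 4 by less than its own SD of 23.4 CPM. Mir449a itself was higher in replicate 2, with 1309 reads against 501 in replicate 1 (log2 ratio 1.23). By the mean, which lies near neither of their own 2 values, Mir211 stood among Mir488, Mir192, Mir3099 and Mir452, whose means lay between 70.1 and 79.3 CPM, and Mir184 among Mir2137, Mir124a-2, Mir6539 and Mir1197, between 12.9 and 13.9 CPM. Their own log2 ratios lay between −0.44 and 0.10 around Mir211, and between −0.78 and 1.10 around Mir184. Mir135a-1 and Mir124a-2 have copies, and reads that map to several places are not in the counts. Their levels are therefore those of uniquely placed reads only.

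Markers of other tissues were set beside the 3 genes. In the sensory organ and endocrine list, the 4 members summed to 7616 CPM in replicate 2 and 5976 CPM in replicate 1. Mir183, Mir375 and Mir96, known from photoreceptors, hair cells or endocrine cells, had log2 ratios of 0.66, 0.59 and 0.58, and Mir182 had −0.06. None of the 4 was past 2-fold, against 7.40% of all 338 genes.

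In the surface epithelium list, which holds Mir205 of corneal, lens and skin epithelium and the mir-200 family, the 7 members summed to 4092 CPM in replicate 2 and 3397 CPM in replicate 1. Their log2 ratios had a median of 0.54 and a range of −0.50 to 0.73, and none of the 7 was past 2-fold, against 7.40% of all 338 genes. Mir205, the most abundant of them, had 5420 reads in replicate 2 and 4000 in replicate 1 (log2 ratio 0.28). Mir429 followed at 829 ± 232 CPM (0.58) and Mir203 at 769 ± 145 CPM (−0.38). Mir205 was more abundant than Mir184 in both libraries and had a smaller ratio, and a link between the levels of these genes was not tested.

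In the Hox-embedded list, known from tissue behind the midbrain, the 6 counted members summed to 395 CPM in replicate 2 and 162 CPM in replicate 1. All 3 that reached a mean CPM of 10, Mir10a (2.12-fold), Mir10b (2.90-fold) and Mir196b (2.84-fold), were past 2-fold and higher in replicate 2. Of all 338 genes, 5.33% were past it in that direction. Among them were genes in none of the lists, such as Mir293 (2.68-fold) and Mir302b (2.44-fold). Below that mean, Mir615 had 40 reads in replicate 2 and 23 in replicate 1, and Mir196a-2 had 14 and 2. Mir196a-1 had 0 reads in both libraries. The Mir196a genes are copies whose shared reads are not in the counts, so this zero does not show absence. The part of other tissues in the difference of Mir211 and Mir184 was not tested.

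A list of 13 neural microRNAs was also read, of which 12 are counted and Mir9-1 is not analysed here. No other region was sampled, so the list cannot tell midbrain from other neural tissue. The 12 counted genes summed to 35931 CPM in replicate 2 and 32248 CPM in replicate 1. Mir92b of neural progenitors led with 25352 and 21245 CPM in the same order, followed by Mir219a-2 at 5151 ± 606 CPM and Mir219a-1 at 2063 ± 353 CPM (SD, n = 2). The neurogenic Mir9 and Mir124a genes were low, with 246 reads for Mir9-3 in replicate 2 and 452 in replicate 1. The Mir9, Mir124a, Mir135a and Mir219a genes have copies that share a mature sequence, and reads that map to several places are not in the counts. Their levels are those of uniquely placed reads only, so they cannot be compared as like with like. Of the 9 neural genes that reached a mean CPM of 10, the median log2 ratio was −0.31 (range −1.03 to 0.36), and 1 was past 2-fold, Mir9-3, lower in replicate 2, against 7.40% of all 338 genes in either direction. The 7 counted heart, muscle and liver microRNAs summed to 70.9 CPM in replicate 2 and 55.5 CPM in replicate 1, less than Mir204 alone. Of these, 3 reached a mean CPM of 10: Mir208b had 33.9 ± 4.24 CPM, Mir122 of hepatocytes 10.5 ± 6.68 CPM and Mir206 10.3 ± 0.413 CPM. Mir1a-1, Mir133a-1 and Mir133a-2 had 0 reads in both libraries. The Mir1a and Mir133a genes also have copies, whose shared reads are not in the counts. Neither these zeros nor the sum of the list therefore show absence. Of the 3 that reached 10 CPM, Mir122 was past 2-fold, with 56 reads in replicate 2 and 19 in replicate 1. The share over all 338 genes in that direction was 5.33%. Like Mir184, Mir122 passed the limit of 10 CPM only through replicate 2 (15.2 CPM, against 5.76 CPM in replicate 1). The filter thus favoured this difference, and nothing is read from it.

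**Figure D4:**
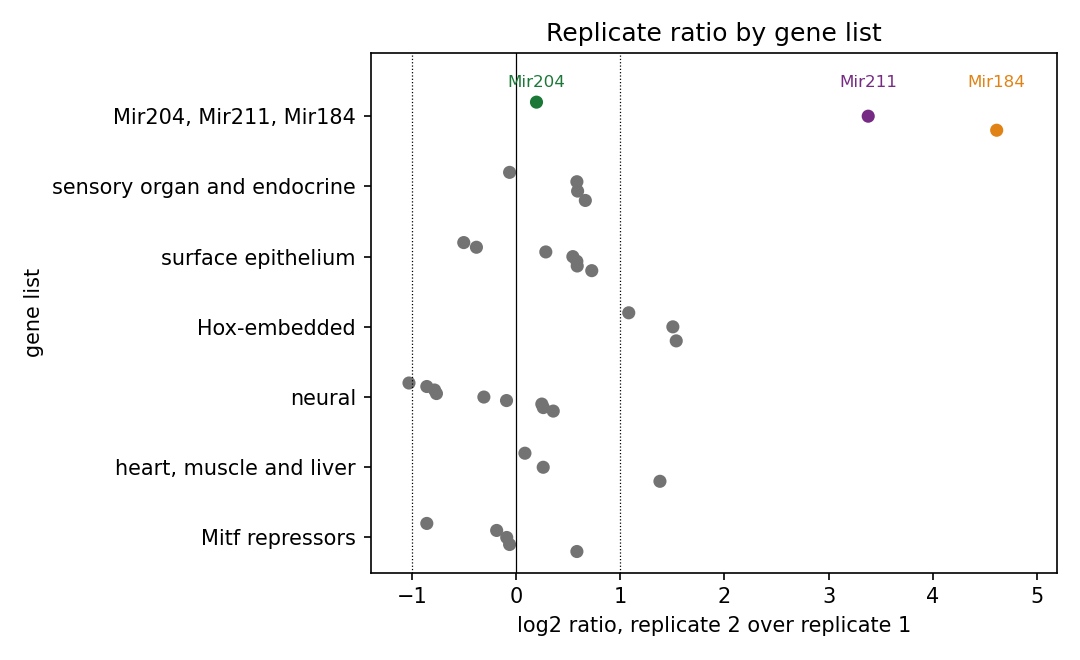
Log2 ratio of replicate 2 over replicate 1 (horizontal axis) for each gene of mean CPM 10 or more, by gene list (rows). Each point is 1 gene, and dotted lines mark 2-fold. Mir96, Mir137 and Mir182 are drawn in the row of Mitf repressors and again in an earlier row. Mir211 (3.38) and Mir184 (4.62) lie to the right of every gene shown from the other lists, of which the highest is Mir10b (1.54). Mir196a-2 of the Hox-embedded list (2.38, from 14 and 2 reads) is below the mean CPM limit and is not shown.

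The last list holds 5 microRNAs reported, mostly from human melanoma cells, to repress the pigment cell factor Mitf, of which Mir96, Mir182 and Mir137 are also in lists above. They summed to 4968 CPM in replicate 2 and 5464 CPM in replicate 1, with a median log2 ratio of −0.09. Mir182 led at 2657 ± 89.7 CPM, then Mir137 at 1103 ± 454 CPM and Mir96 at 838 ± 234 CPM (SD, n = 2). None of the 5 was past 2-fold, against 7.40% of all 338 genes. The lowest ratio was that of Mir137 (−0.86), which had 2881 reads in replicate 2 and 4697 in replicate 1, and the highest that of Mir96 (0.58).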

How the data were processed

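Small RNA was sequenced in 2 libraries of 1 group. Values are raw counts of reads for each microRNA gene, which the authors deposited without scaling and made from reads aligned to mm10 and counted on GENCODE M4, per the description deposited with the files. For aligner, trimming and extraction, details were not given in the sources used here. Beside 1973 rows of genes, a file has 4 rows that name no gene. The latter held 60.9% of the reads of replicate 2 and 57.8% of those of replicate 1, among them multiply mapped reads (29.5% and 30.9%), and stayed out of library sizes. The 3 count columns have no names. The first, in each gene row the total of the other columns, was used. The biological replicates are not stated to come from separate litters, so their spread may be partly technical.

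Identifiers were matched without version to GENCODE M21 on GRCm38, the build of mm10, and 1894 of 1973 matched. The version of the Mir204 identifier differs between the files and M21. Coordinates are 1-based and sequences are from RefSeq (GRCm38.p6). CPM values, means and SDs were computed over 2 replicates. Library sizes for ratios were scaled by TMM (edgeR 4.0.16), with 0.5 added reads. Intervals are exact Clopper-Pearson ones at 95%, from counts without added reads. With 1 group there is no contrast between conditions, and no test was made. The ratio and its interval were run on simulated data that held counting error alone, so that run does not cover spread between libraries. It used genes with more expected reads than Mir184 had in replicate 1. The genes and lists were chosen with earlier results of these data known. Named genes were the 3 genes, for each the 3 nearest in log2 ratio and the 2 next above and below in mean CPM, and up to 3 leading genes of each list. Mir9-3, Mir10a, Mir10b, Mir96, Mir122, Mir137, Mir183, Mir196a-2, Mir293, Mir302b, Mir375, Mir449a, Mir615 and genes at 0 reads were further described after their values were seen. Alternatives were other scalings including DESeq2 size factors (DESeq2 1.42.0), filters, thresholds, added reads, the other count columns and leaving out each replicate. The work used Python 3.11.15, pandas 2.3.3, scipy 1.17.1, matplotlib 3.10.9 and R 4.3.3.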

Additional observations from a re-analysis of the deposited data

How the results depend on the processing

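Log2 ratios ranged from 0.08 to 0.23 for Mir204, from 3.26 to 3.42 for Mir211 and from 3.88 (3 added reads) to 4.83 (0 added reads) for Mir184, and none changed sign. Per 1000000 reads of the whole library, the means were 102 for Mir204, 29.5 for Mir211 and 5.23 for Mir184, and without Mir335, the most abundant gene, they were 289, 87.2 and 15.6 CPM. The third count column held 0 reads of all 3 genes. The SDs of Mir211 and Mir184 exceed their means, so moves of these means cannot be judged against them. Leaving out a replicate gave 235 to 268 CPM for Mir204, 13.0 to 137 CPM for Mir211 and 0.910 to 25.8 CPM for Mir184. With genes of mean CPM 100 or more, 0 of the 3 genes were past 2-fold, because Mir211 and Mir184 are below that filter. Over all genes, the 25 past 2-fold became 99 of 621 with at least 1 read in both libraries, 44 of 422 with a mean of 10 reads or more, and 11 of 222 at mean CPM 100 or more. At 1.5-fold there were 58 and at 4-fold 2. No paired analysis was possible because there is 1 group. The 3 reads of Mir184 in replicate 1 limit its ratio.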

Other observations

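Of the 338 genes of mean CPM 10 or more, 149 lie within a protein-coding gene on the same strand, as Mir204 and Mir211 do. Their median log2 ratio of replicate 2 over replicate 1 was −0.04, 5 were more than 2-fold higher in replicate 2 and 2 lower, and Mir211 was the highest at 3.38. The other 189 had a median of −0.02, with 13 higher and 5 lower, and Mir184 was the highest at 4.62.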
